A study of Drosophila melanogaster with 2 samples.

Results

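Translation factor genes of Drosophila melanogaster were examined for peaks of the protein encoded by CG16779 in embryonic chromatin. The genes were all protein-coding genes of the dm6 gene models whose symbols start with eIF (initiation factors) or eEF (elongation factors), which gave 52 of 13968 genes, 44 eIF and 8 eEF. Membership was set by symbol and used no measured value, although the set was chosen with earlier results of these data known. The peaks came from chromatin immunoprecipitation and sequencing of whole embryos aged 8 to 24 hours, from flies transgenic for a CG16779-eGFP fusion, with an antibody against GFP and chromatin sonicated to 200 to 800 bp. The labels gave 2 biological replicates of this 1 group, and no untagged or mock library was analysed here, so no comparison between conditions was made. Whole embryos mix all cell types of this age, so a weak signal in many cells and a strong one in few cannot be told apart.

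In eukaryotes, initiation factors bring the initiator tRNA, the small ribosomal subunit and the capped mRNA together and select the start codon. Elongation factors then deliver aminoacyl-tRNAs to the ribosome and move it along the mRNA. Most of these proteins are needed in every growing cell, and in flies several have paralogs that are used mainly in the germ line or in particular tissues. Ribosomal protein genes, and some translation factor genes with them, often start transcription at a pyrimidine-rich initiator called TCT.

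A gene was counted as bound when a summit of the conservative peak list lay within 500 bp of any of its transcription start sites (TSSs). That list holds 2516 peaks on the chromosome arms, all with an irreproducible discovery rate (IDR, a measure of how poorly a peak's rank is repeated) of at most 0.01 between the replicates, and leaves out 103 ranked peaks that also reached it. Of the 44 eIF genes, 8 were bound (18.2%, 95% exact interval 8.19 to 32.7), and of the 8 eEF genes, 4 (50%, 15.7 to 84.3). The intervals of the eIF and eEF shares overlap. Over all 52 genes the count was 12 (23.1%, 12.5 to 36.8), against 1583 of all 13968 protein-coding genes (11.3%). The share of all genes lies inside the eIF interval and below the eEF interval and the interval of the 52 genes. The last 2 placements depend on the rule: with only the 5′ end of each gene model counted, the share of all genes (9.68%) lies inside the eEF interval (8.52 to 75.5) and that of the 52 genes (9.63 to 32.5). It also lies inside the interval of the 52 genes at 1000 bp and in the own list of each replicate. Genes with RpL or RpS symbols, the cytoplasmic ribosomal proteins, had 51 of 92 bound (55.4%, 44.7 to 65.8). Their interval lies above that of the eIF genes. The ribosomal share lies inside the eEF interval, so with 8 eEF genes these 2 shares cannot be ranked. Genes are not replicates and the intervals cover counting error only, so these shares are descriptions.

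The strongest peak at any translation factor gene stood at eIF6, which encodes the factor that keeps the large ribosomal subunit from joining the small one too early. Its signal, the value given by the authors' peak caller, was 321.7 in replicate 1 and 360.5 in replicate 2 (341.1 ± 27.4, SD, n = 2). Both replicates were far above those of any other member, and the peak (2R, 23850291 to 23850501) ranked 9 of 2516 by its combined signal, the signal of the peak in the reads of both replicates together. Its summit lay 98 bp upstream of the single eIF6 TSS, inside an intron of ytr and 69 bp from the TSS of the noncoding RNA asRNA:CR45928.

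Factors that choose the start codon and load the initiator tRNA gave 3 bound genes with weaker peaks. At eIF1, which guards against initiation at wrong codons, the signal was 74.7 in replicate 1 and 65.9 in replicate 2 (70.3 ± 6.23, SD, n = 2; 3L, 3222810 to 3223099). That summit was 386 bp upstream of the eIF1 TSS but 3 bp from the TSS of RpL28, a ribosomal protein gene on the opposite strand, in whose 5′ UTR it lies. The snoRNA gene snoRNA:Or-CD11a started 414 bp from it. At eIF2A, described in mammals as an alternative carrier of initiator tRNA, the signal was 65.7 in replicate 1 and 27.5 in replicate 2 (46.6 ± 26.97, SD, n = 2; 3L, 21824775 to 21825064). The ratio of 2.38 between the replicates was the largest among bound members. The eIF2A summit lay in the 5′ UTR, 45 bp upstream of its nearest TSS and 180 bp downstream of the other. At eIF2D, which in mammals acts in noncanonical initiation and in recycling, the signal was 39.1 in replicate 1 and 32.6 in replicate 2 (35.9 ± 4.59, SD, n = 2; 3R, 29151832 to 29152121). Its summit lay between genes, 183 bp upstream of the TSS, and its rank of 2245 was the lowest of the 12 bound genes. No gene for the 3 subunits of eIF2 itself, which carries initiator tRNA in the main pathway, was bound, nor was any of the 5 genes of eIF2B, its nucleotide exchange factor. With 11.3% of all genes bound, counts of 0 in groups this small are near the background.

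The eIF3 complex, the multi-subunit scaffold on the small ribosomal subunit, had 3 of its 16 genes bound. The signal at eIF3a was 60.5 in replicate 1 and 42.1 in replicate 2 (51.3 ± 12.99, SD, n = 2; 3R, 4433806 to 4434095). The eIF3a summit lay 56 bp upstream of its TSS and 14 bp from the TSS of the divergent gene CG1074, with an INE-1 transposable element annotated 473 bp away. At eIF3c the signal was 30.3 in replicate 1 and 44.7 in replicate 2 (37.5 ± 10.2, SD, n = 2; 2R, 17665550 to 17665839), with the summit 17 bp downstream of a TSS in the 5′ UTR. At eIF3h it was 42.1 in replicate 1 and 49.9 in replicate 2 (46.0 ± 5.51, SD, n = 2; 2L, 5052364 to 5052653). The eIF3h summit lay in an intron 271 bp downstream of its nearest TSS, and 334 bp from the TSS of the neighbouring gene senju. The eIF5B gene, which encodes the GTPase that joins the ribosomal subunits, had 42.7 in replicate 1 and 31.3 in replicate 2 (37.0 ± 8.11, SD, n = 2; 3L, 3460611 to 3460900). Its summit lay in the 5′ UTR, 153 bp upstream of one TSS and 221 bp downstream of the other. None of the 13 genes of the eIF4 group, the cap-binding proteins, scaffolds and helicase factors that prepare the mRNA, had a peak in the conservative list. Beside the 11.3% of all genes, neither 0 of 13 nor 3 of 16 stands apart at these numbers of genes.

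Among elongation factors, the bound genes were eEF1alpha1, eEF1gamma, eEF2 and eEF5. At eEF1alpha1, which delivers aminoacyl-tRNAs, the signal was 51.7 in replicate 1 and 64.2 in replicate 2 (57.9 ± 8.81, SD, n = 2; 2R, 11892006 to 11892295). The summit lay 29 bp downstream of the third of 4 annotated TSSs, and 1016 and 755 bp downstream of the first and the second. At eEF1gamma, a structural subunit of the exchange factor complex, the signal was 115.1 in replicate 1 and 92.0 in replicate 2 (103.5 ± 16.3, SD, n = 2; 3R, 29220092 to 29220204), with the summit 20 bp upstream of a TSS. This was the strongest eEF peak, at rank 183 of 2516, and at 113 bp it was also the narrowest at a member. Peaks of 290 bp stood at 10 of the 12 bound members, against 1419 of all 1583 bound genes.

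At eEF2, the translocase, the signal was 49.7 in replicate 1 and 37.5 in replicate 2 (43.6 ± 8.64, SD, n = 2; 2L, 21681922 to 21682211), with the summit in the 5′ UTR 49 bp downstream of a TSS. At eEF5, the fly gene for the hypusine-carrying factor called eIF5A in other species, it was 55.8 in replicate 1 and 65.5 in replicate 2 (60.6 ± 6.82, SD, n = 2; 2R, 24057659 to 24057948), with the summit 6 bp downstream of a TSS. The 8 bound eIF genes thus ranked between 9 and 2245 in the list, and the 4 bound eEF genes between 183 and 970. The median combined signal was 88.3 for bound eIF genes, 115 for bound eEF genes and 95.3 for all bound genes.

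The other 4 eEF genes had weak peaks in the full ranked list, which holds peaks of any IDR. The signal at eEF1alpha2, a paralog of eEF1alpha1, was 17.8 in replicate 1 and 6.57 in replicate 2, with an IDR of 0.52. Both replicates were below those of eEF1alpha1. At eEF1beta, an exchange factor subunit, it was 9.20 in replicate 1 and 12.8 in replicate 2. At eEF1delta, another subunit of that complex, it was 5.49 in replicate 1 and 4.73 in replicate 2, the lowest of the 8. At eEFSec, which delivers selenocysteinyl-tRNA, it was 16.0 in replicate 1 and 12.7 in replicate 2. In each replicate the 4 bound eEF genes lay above all 4 of the others, a separation that the threshold on the peaks partly fixes. Within the exchange factor complex, the gene for the gamma subunit was bound and those for beta and delta were not, against 11.3% of all genes bound. The peaks at beta and delta stood in the ranked list only, each with an IDR of 0.74.

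**Figure D1:**
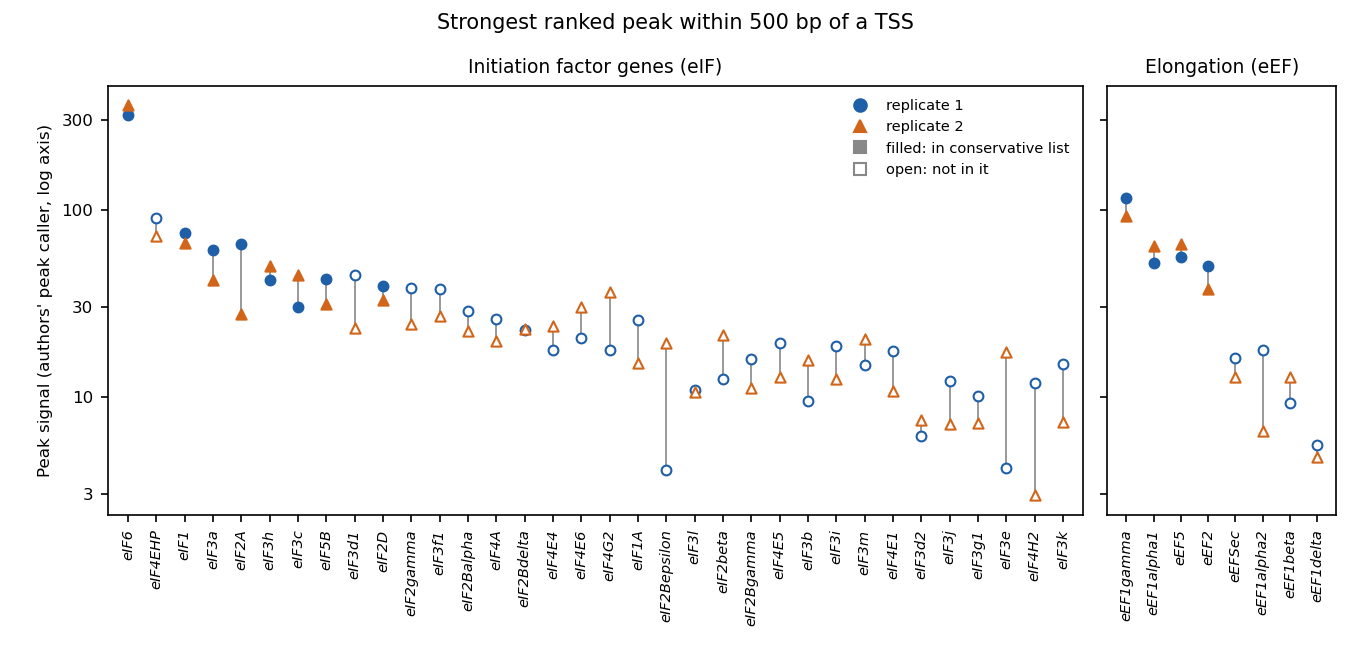
Signal of the strongest ranked peak within 500 bp of a TSS (log axis, units of the authors' peak caller) at each of the 34 eIF and 8 eEF genes that had one, ordered by combined signal, with 1 symbol per replicate joined by a line. Filled symbols are genes bound in the conservative list; eIF6 stands apart at 321.7 and 360.5, and the open symbols of eIF4EHP (90.2 and 71.8) lie among the filled ones.

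In the plot of signals by member, the mean signal of the bound genes other than eIF6 ran from 35.9 at eIF2D to 103.5 at eEF1gamma. The IDR of the bound genes ran from 1e-05 at eIF6 to 0.0058 at eIF2A. Replicate 1 was higher for 5 of 8 bound eIF genes and for 2 of 4 bound eEF genes. On the log2 scale the signal of replicate 2 over that of replicate 1 had a median of -0.22 (SD 0.56) for bound eIF genes, -0.05 (SD 0.37) for bound eEF genes and 0.02 (SD 0.42) for all 1583 bound genes. 

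The median summit lay farther from a TSS at the 8 bound initiation factor genes than at the 4 bound elongation factor genes, and the ranges overlapped, with eIF3c and eIF2A nearer than some eEF genes. The distance to the nearest TSS of the gene had a median of 125.5 bp for bound eIF genes (17 to 386 bp) and 24.5 bp for bound eEF genes (6 to 49 bp), against 101 bp for all bound genes. A summit was found 50 bp or less from a TSS at 2 of 8 eIF genes, eIF2A and eIF3c, and at 4 of 4 eEF genes, against 416 of 1583 bound genes (26.3%). The bound ribosomal protein genes had a median of 29 bp, with 40 of 51 within 50 bp (78.4%). The summit lay upstream of the nearest TSS for 6 of 8 eIF genes and 1 of 4 eEF genes, against 1114 of 1583 bound genes. The eIF genes had a mean of 1.41 annotated TSSs, the eEF genes 1.88 and all genes 1.41, and the part of this number in the distances was not tested.

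**Figure D2:**
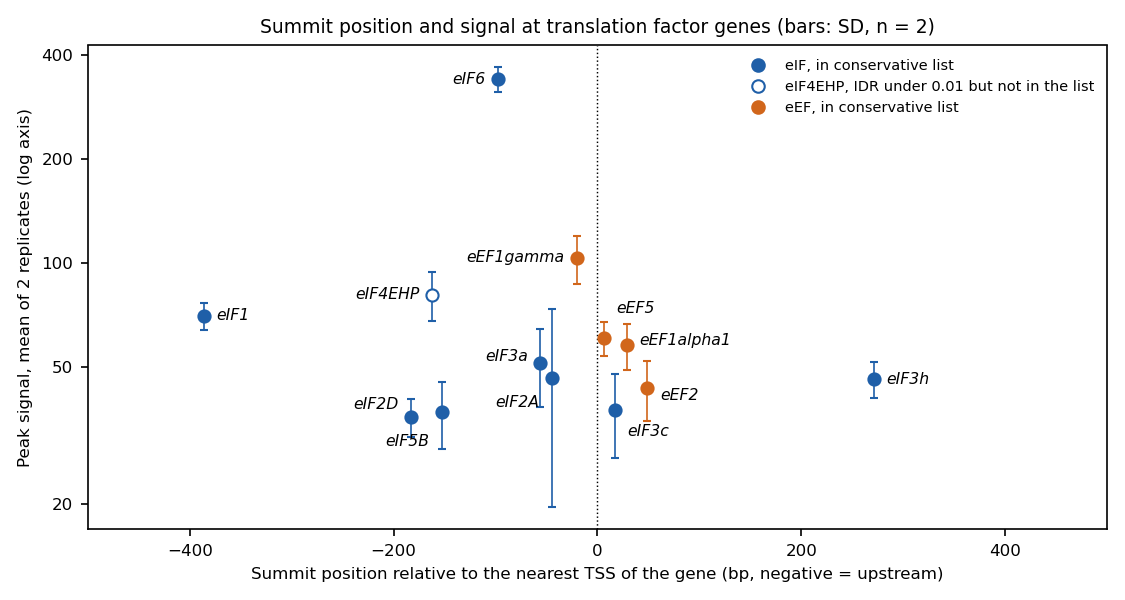
Position of the summit relative to the nearest TSS of the gene (horizontal axis, bp, negative upstream) and signal as the mean of the replicates (vertical log axis, bars SD, n = 2) for the 8 bound eIF genes, the 4 bound eEF genes and eIF4EHP (open). The eEF summits sit within 49 bp of the TSS, whereas eIF summits spread from 386 bp upstream (eIF1) to 271 bp downstream (eIF3h).

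Some of the bound members shared their peak with a neighbouring gene. A peak was shared with another protein-coding gene by 3 of 8 bound eIF genes (eIF1, eIF3a and eIF3h) and by 0 of 4 bound eEF genes, against 739 of 1583 bound genes (46.7%). Beside that share, neither 3 of 8 nor 0 of 4 stands apart at these numbers of genes. At eIF1 and eIF3a the neighbour's TSS was the nearer one, so both were lost when each summit was given to its nearest protein-coding gene alone, which left 6 eIF and 4 eEF genes against 8.98% of all genes.

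A selection of sequences around summits and start sites that hold a core promoter motif is shown. The summit window of eIF4EHP, which holds none of them, is shown for contrast. Those of eEF5 and eIF3m, which also hold such motifs, are not printed. They were read from release 6 of the reference genome (dm6 coordinates) on the strand of the gene, 5′ to 3′. Capitals mark matches to the DNA replication-related element DRE (TATCGATA), to Motif 1 (GGTCACAC), to Motif 7 (read as CATCNCTA, as CATCNCTG, as CAGCNCTA or as CAGCNCTG) or to the TCT initiator (read as TCTTTT, as TCTTTC, as CCTTTT or as CCTTTC, on the gene's strand, with its C at most 5 bp from a TSS), and windows were shortened so as to hold at most 30 bases of UTR. The first 4 windows lie around summits.
eEF1gamma, chr3R:29220102-29220201, plus strand, DRE then Motif 7: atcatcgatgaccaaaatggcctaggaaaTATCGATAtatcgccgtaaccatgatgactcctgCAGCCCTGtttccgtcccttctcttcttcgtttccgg
eIF3a, chr3R:4433901-4433994, minus strand, DRE: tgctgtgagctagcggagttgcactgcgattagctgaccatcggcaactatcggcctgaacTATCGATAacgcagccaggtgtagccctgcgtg
eIF2A, chr3L:21824905-21824934, plus strand, Motif 1: GTGTGACCaattcaagcacgaaatcgttga
eIF4EHP, chr3R:24109072-24109172, minus strand, no match: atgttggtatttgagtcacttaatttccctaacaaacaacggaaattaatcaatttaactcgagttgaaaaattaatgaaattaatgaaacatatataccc
The other 4 lie around the TSS with the TCT initiator, at 1 of the 2 bound elongation factor genes that have it and at 3 of the 4 initiation factor genes that have it and were not bound.
eEF2, chr2L:21682102-21682131, minus strand, TCT: gtcgctgcagcgcctcgcTCTTTCctgtcg
eIF3f1, chr3R:4714153-4714222, minus strand, DRE, TCT and Motif 7: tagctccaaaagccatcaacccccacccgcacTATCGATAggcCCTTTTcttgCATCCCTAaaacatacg
eIF3i, chr2L:4967746-4967815, minus strand, Motif 1, TCT and Motif 7: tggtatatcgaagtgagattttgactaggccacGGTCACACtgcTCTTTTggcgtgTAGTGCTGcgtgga
eIF4A, chr2L:5981724-5981793, plus strand, Motif 7 and TCT: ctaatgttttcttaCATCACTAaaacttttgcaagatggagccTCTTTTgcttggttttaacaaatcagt

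The TCT initiator was found at 4 of 44 eIF genes (eIF3f1, eIF3i, eIF3m and eIF4A) and at 2 of 8 eEF genes (eEF2 and eEF5), against 2.13% of all protein-coding genes and 55 of 92 ribosomal protein genes (59.8%). None of those 4 eIF genes was bound, and both eEF genes were. The C of the match lay 4 or 5 bp downstream of the annotated TSS at eEF2, eEF5, eIF3f1, eIF3i and eIF4A. At eIF3m it lay 4 bp upstream in one match and 1 bp downstream in another. Among all genes, 75 of 297 with the initiator were bound (25.3%), against 11.0% of those without. Of the 6 members with the initiator 2 were bound (33.3%), and of the 46 without it 10 were (21.7%). With 6 such genes, these shares cannot show whether the initiator goes with binding among members.

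In the 300 bp from 250 bp upstream to 50 bp downstream of the start of each gene model, DRE occurred in 12 of 44 eIF genes (27.3%) and 2 of 8 eEF genes (25.0%), against 9.36% of all genes. Of those 14 members 4 were bound (eIF3a, eIF3c, eIF6 and eEF1gamma), and of the 38 others 8 were. Among all genes 14.3% with DRE and 11.0% without it were bound. These windows lie at the start of the gene model only, whereas bound genes were counted at any TSS. The 8 thus include eIF2A, which has DRE within 50 bp of its summit. Motif 7 occurred in 14 eIF genes (31.8%) and 4 eEF genes (50%), against 19.1% of all genes, and Motif 1 in 6 eIF genes (13.6%) and 0 eEF genes, against 7.69%. Of the 18 members with Motif 7, 6 were bound, while among all genes 17.2% with it and 9.95% without it were. The 18 include eIF4EHP, although its summit window printed above held no match. Of the 6 members with Motif 1, 0 were bound, against 12.9% of all genes with it, a share at which 0 of 6 says little. GAGA (GAGAG) was in 7 eIF genes (15.9%) and 1 eEF gene (12.5%), against 29.7% of all genes, and the E-box CAGCTG in 4 eIF genes (9.09%) and 0 eEF genes, against 17.6%. A run of 8 A was in 3 eIF genes (6.82%) and 3 eEF genes (37.5%), against 15.9%. None of those 6 was bound, and among all genes with such a run 11.0% were. The search covered both strands for every motif but the TCT initiator.

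Within 50 bp of the summit, in windows of 101 bp, DRE was present at eIF2A, eIF3a and eEF1gamma, that is 2 of 8 bound eIF and 1 of 4 bound eEF genes, against 38 of the 1316 conservative summits within 500 bp of a protein-coding TSS (2.89%). The DRE match of eIF2A lay outside the stretch printed above. Motif 7 was present at eEF1gamma and eEF5 (10.7% of all such summits), Motif 1 at eIF2A (1.29%) and GAGAG at eEF1alpha1 (15.2%). No E-box or run of 8 A was found at any of the 12. The 6 motifs were thus absent in these windows from eIF6, eIF1, eIF2D, eIF3c, eIF3h, eIF5B and eEF2, which include the strongest peak of all members. The GC content of the 12 windows ran from 37.6% at eIF3c to 54.5% at eIF3a, with 45.5% as the median of all such summits, whereas the eIF4EHP window printed above had 26.7%.

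The strongest peak at a gene that was not bound belonged to eIF4EHP, which encodes a cap-binding protein that in flies represses translation of selected mRNAs. Its signal was 90.2 in replicate 1 and 71.8 in replicate 2 (81.0 ± 13, SD, n = 2), higher in each replicate than that of every bound eIF gene except eIF6. Its summit lay 162 bp upstream of the TSS, and its IDR of 0.00016 was below the threshold of the conservative list. The peak is one of 103 of the 2619 ranked peaks with an IDR of at most 0.01 that are absent from the conservative list. These were unevenly placed, with 62 on 3R, where eIF4EHP lies, and 32 on 2L, and the next of them was 218010 bp away. In the conservative list 303 peaks were stronger. The peak was also missing from the thresholded list of each replicate, although the IDR in their own ranked lists was 0.00041 for replicate 1 and 0.0028 for replicate 2. The sources used here do not state a filter that removed such peaks. With all ranked peaks of IDR at most 0.01 admitted, a choice made after the data were seen, 9 eIF and 4 eEF genes were bound, against 11.7% of all genes.

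The next strongest members that were not bound were initiation factor genes too. At eIF3d1, an eIF3 subunit that in human cells can also bind the cap, the signal was 44.6 in replicate 1 and 23.4 in replicate 2 (IDR 0.025, 407 bp upstream). At eIF2gamma, the GTP-binding subunit of eIF2, it was 38.0 in replicate 1 and 24.5 in replicate 2 (IDR 0.021, 200 bp upstream). At eIF3f1 it was 37.4 in replicate 1 and 27.0 in replicate 2 (IDR 0.012, 40 bp upstream). In replicate 1 all 3 exceeded the bound gene eIF3c (30.3), and eIF3d1 also exceeded eIF2D and eIF5B. In replicate 2 all 3 were below each of these bound genes. At eIF2Balpha, a regulatory subunit of eIF2B, the signal was 28.7 in replicate 1 and 22.5 in replicate 2 (IDR 0.054). The helicase gene eIF4A, the core unwinding enzyme of the cap complex, had 25.9 in replicate 1 and 19.8 in replicate 2 (IDR 0.11).

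A peak of any IDR within 500 bp was present at 34 of 44 eIF genes and 8 of 8 eEF genes, against 82.9% of all genes. The 10 eIF genes without one were eIF2alpha, eIF2Bbeta, eIF3f2, eIF3g2, eIF4B, eIF4E3, eIF4E7, eIF4G1, eIF4H1 and eIF5. Of these, 5 were on the X chromosome (eIF2alpha, eIF2Bbeta, eIF4E7, eIF4H1 and eIF5), that is 5 of the 7 members there, while 15.8% of all X-linked genes had no ranked peak. The cause was not tested. The genes eIF2alpha (16445176 to 16446993) and eIF4H1 (16448665 to 16454972) lie close together, so the 5 are not independent. The gene for the main cap-complex scaffold, eIF4G1, lies on chromosome 4, where 88.8% of genes had none. The members without a peak thus included the alpha subunit of eIF2, whose phosphorylation slows initiation in stress, and eIF5, the activator of the eIF2 GTPase. Close to eIF2Bbeta but outside the window stood the strongest peak of the whole list, at Ugalt, 691 bp from the eIF2Bbeta TSS. Its signal was 533.7 in replicate 1 and 593.7 in replicate 2.

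Ranked by the strongest peak within 500 bp, with a gene without a peak set to 0, the eIF genes had a median percentile of 47.8 among the 13968 protein-coding genes and the eEF genes 71.6. The ribosomal protein genes had 91.1. Of the eIF genes 22 of 44 lay above the median gene, and of the eEF genes 4 of 8. No eEF gene stood near the eEF median of 71.6: the 4 bound ones were at 94.1 or above and the others at 49.0 or below. The medians of the complexes were 84.6 for eIF2 with eIF2A and eIF2D (2 of 5 bound) and 79.8 for eIF1 and eIF1A (1 of 2 bound). The value 84.6 is that of eIF2gamma, which was not bound and whose summit lay in the 5′ UTR of Set. The value 79.8 lies between those of eIF1, with its summit in the RpL28 5′ UTR, and eIF1A, in a Vps39 intron (IDR 0.26). Medians were 55.6 for eIF2B, 49.3 for eIF5 and eIF5B (1 of 2 bound) and 42.7 for eIF3. The eIF4 group had 34.9 and eEF1 41.6 (2 of 5 bound). Within eIF3 the percentiles ran from 8.57, the value of a gene without a peak, to 94.5, and within the eIF4 group from 8.57 to 98.2, so genes of the same complex stood far apart.

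**Figure D3:**
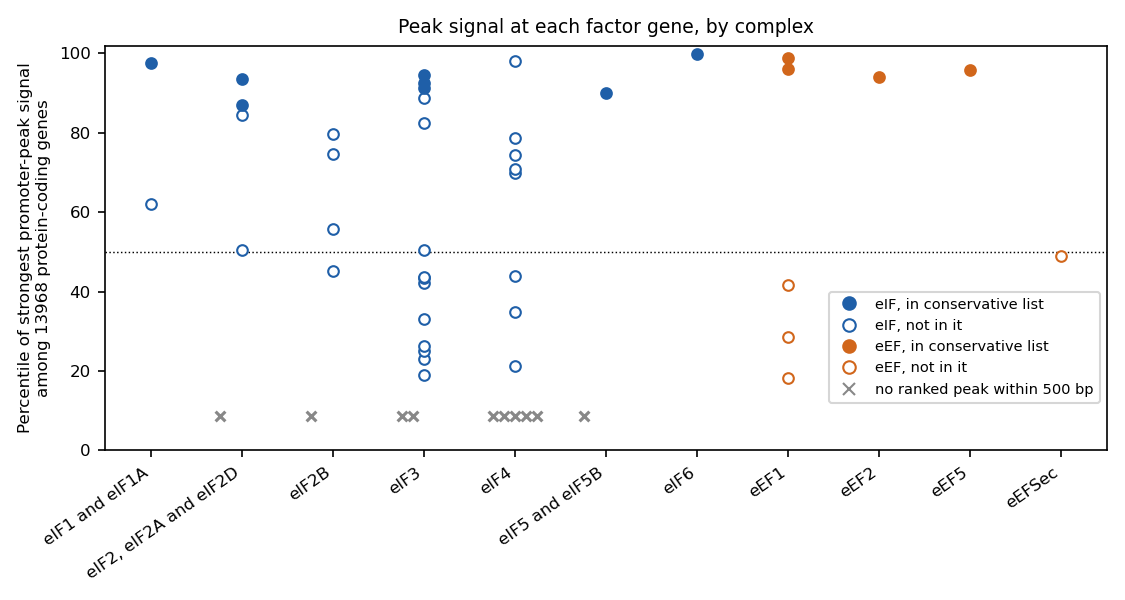
Percentile of the strongest peak signal within 500 bp of a TSS (vertical axis, among 13968 protein-coding genes) for each of the 52 genes, by complex along the horizontal axis. Filled circles are bound genes, open circles are not bound and crosses have no ranked peak; eIF3, the eIF4 group and eEF1 each spread over most of the range, and the dotted line marks the median gene.

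Paralogs of the same factor often stood far apart on this scale. In the pair for tRNA delivery, eEF1alpha1 stood at percentile 96.0 and eEF1alpha2 at 41.6. For eIF3d, eIF3d1 stood at 88.9 and eIF3d2 at 33.0, with signals of 6.14 in replicate 1 and 7.48 in replicate 2 at eIF3d2. The eIF3d1 summit (IDR 0.025) lay in a coding exon of GILT2, and the peak at eIF3d2 had an IDR of 0.74. For eIF3f, eIF3f1 stood at 82.4, and eIF3f2 had no peak. Neither gene for eIF3g was high, with eIF3g1 at 25.0 and no peak at eIF3g2. For the cap-binding protein eIF4E the main gene was not the highest, among peaks with IDRs from 0.076 at eIF4E6 to 0.45 at eIF4E1. The eIF4E6 summit lay in the 5′ UTR of CG1951. The gene eIF4E1 stood at 34.9, below eIF4E4 at 74.5, eIF4E6 at 70.9 and eIF4E5 at 43.9, with no peak at eIF4E3 and eIF4E7. The signals of eIF4E1 and eIF4E4 were close in replicate 1 and apart in replicate 2. The gene eIF4E1 had 17.5 in replicate 1 and 10.7 in replicate 2, and eIF4E4 had 17.7 in replicate 1 and 23.7 in replicate 2. The scaffold paralog eIF4G2 stood at 69.9, with 17.7 in replicate 1 and 36.4 in replicate 2, while eIF4G1 had no peak. The eIF4G2 summit (IDR 0.14) lay in an intron of CG34355. Of the genes for the helicase cofactor eIF4H, eIF4H2 stood at 21.2, with 11.9 in replicate 1 and 2.97 in replicate 2, and eIF4H1 had none.

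The counts were lower in the lists made from each replicate alone, for members and for all genes. The own list of replicate 1 held peaks at 4 eIF genes (eIF1, eIF2A, eIF3h and eIF6) and 3 eEF genes (eEF1gamma, eEF2 and eEF5), against 6.47% of all genes. The own list of replicate 2 held 3 eIF genes (eIF1, eIF3h and eIF6) and 3 eEF genes (eEF1alpha1, eEF1gamma and eEF5), against 6.62% of all genes. A peak stood in both own lists at 3 of 8 bound eIF genes and 2 of 4 bound eEF genes, against 40.4% of all bound genes. The 4 bound members in neither were eIF2D, eIF3a, eIF3c and eIF5B, so these rest on the comparison of the replicates with each other. The same held for 547 of all 1583 bound genes, so 4 of 12 is near the background. The list from pooled reads added eIF2gamma and eIF3d1, for 10 eIF and 4 eEF genes against 11.9% of all genes.

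Rules on position gave 6 to 9 bound eIF genes and 3 to 4 bound eEF genes. Within 250 bp, 6 eIF genes and 4 eEF genes were bound, against 9.25% of all genes, since eIF1 and eIF3h dropped out. Within 1000 bp there were 9 and 4, with eIF2Bbeta added, against 14.2% of all genes, and where the peak interval only had to overlap the 500 bp window there were 8 and 4, against 12.4%. Counting only the 5′ end of each gene model left 7 eIF and 3 eEF genes, against 9.68%, because eIF3h and eEF1alpha1 were bound at downstream TSSs. In the stronger 1258 peaks of the conservative list there were 5 eIF genes (eIF1, eIF2A, eIF3a, eIF3h and eIF6) and all 4 eEF genes, against 7.07%.

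**Figure D4:**
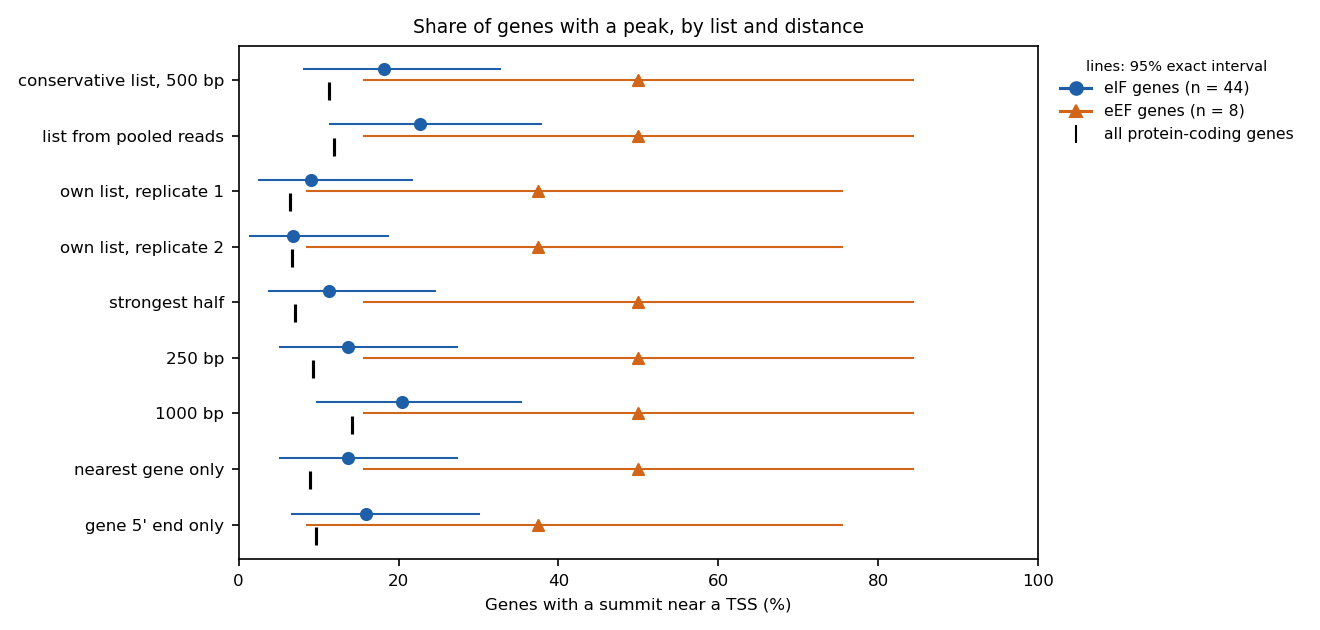
Share of genes with a summit near a TSS (horizontal axis, percent) for the 44 eIF genes, the 8 eEF genes and all protein-coding genes under each peak list or distance rule (rows), with lines for the 95% exact intervals. The eEF share is 37.5% or 50% in every row and the eIF share is between 6.82% and 22.7%, and the eIF and eEF intervals overlap in every row.

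Other genes of translation, taken from a list of 32 symbols of which 30 matched the annotation, had 4 bound members (13.3%), close to the 11.3% of all genes. At eRF3, the GTPase of termination, the signal was 39.6 in replicate 1 and 28.2 in replicate 2, at a peak 59 bp upstream that it shares with the splicing factor gene SC35. It was the only bound gene of 7 in termination and recycling. Of 13 regulators of initiation 3 were bound. Thor, the fly eIF4E-binding protein that blocks cap-dependent initiation, had 46.5 in replicate 1 and 86.6 in replicate 2, with the summit 21 bp upstream of the TSS. The gene NAT1, a relative of eIF4G, had 39.5 in replicate 1 and 39.6 in replicate 2.

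The RNA-binding protein gene larp, whose mammalian counterpart binds mRNAs of the translation machinery, had 50.2 in replicate 1 and 37.0 in replicate 2 at its conservative peak, 66 bp upstream. A stronger larp peak, with 266.7 in replicate 1 and 266.6 in replicate 2 at 329 bp upstream, was in the ranked list but, like that of eIF4EHP, absent from the conservative list. Neither gene of the hypusine pathway (0 of 2), whose enzymes modify the eEF5 protein, and none of the 8 mitochondrial translation factors was bound, counts near the 11.3% of all genes for lists this short.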

How the data were processed

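Peak lists on dm6 were used as deposited by the authors. The files have no headers, so columns were read by the standard layout of such lists. Signal deposited by the authors is on the scale of the peak caller, and −log10 of the IDR was deposited beside it. The aligner, caller and their versions are not given in the sources used here. Columns with the signal of each replicate were assigned by exact matches to the replicates' own lists (106479 and 107258 of 136703 peaks, 0 to the wrong replicate). No file gives the read depth, and exact Clopper-Pearson intervals cover counting error only. Replicates share 1 group, so no test between groups was made.

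TSSs came from Ensembl release 115 gene models (19630 for protein-coding genes) and sequence from release 6 of the genome. Percentiles average ties. Simulated summits at known distances were used to check the assignment of summits to genes. Python 3.11.15, numpy 2.4.6, pandas 2.3.3, scipy 1.17.1 and matplotlib 3.10.9 were used. Named genes were every bound member, every eEF gene, the 5 strongest and 5 weakest other members, genes within 500 bp of a bound member's summit and bound genes of the pathway list. Further members were named after their values were seen. Members, lists and rules were chosen with earlier results of these data known. Tor and mEFG2 had no match by symbol.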

Additional observations from a re-analysis of the deposited data

How the results depend on the processing

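The counts of bound eIF and eEF genes stayed within 1.5 times of the reported 8, 4 and 12 (eIF, eEF, both) in the pooled list, at 250 and 1000 bp, with interval overlap, with the nearest gene only, with the 5′ end only and with ranked peaks of IDR at most 0.01. Using 1 replicate's own list gave 3 to 4 eIF, 3 to 3 eEF and 6 to 7 genes in all, and the stronger 1258 peaks of the list gave 5 eIF genes. The cause was not tested.

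The median percentile of 47.8 for eIF, 71.6 for eEF and 49.7 for all 52 genes became 52.6, 77.7 and 55.2 at 250 bp and 51.9, 83.9 and 58.1 at 1000 bp. It was 51.3 to 53.6, 67.0 to 73.2 and 51.7 to 53.6 in the ranked lists of single replicates. With the 5′ end only, the eEF median was 56.9 and that of all 52 genes 51.6. At 250 bp the signal of the strongest peak was 17.2 for eIF1 and 23.3 for eIF3h.

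No paired analysis was possible because both samples belong to 1 group. No control library was analysed here and the depth is unknown, so weak signals cannot be set against a background, and with 8 eEF genes the intervals are wide.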

Other observations

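Aminoacyl-tRNA synthetase genes, which charge the tRNAs that the elongation factors carry, were added after the data were seen. Of 32 such genes 2 were bound (6.25%), against 11.3% of all genes. At IleRS the signal was 47.6 in replicate 1 and 53.5 in replicate 2, at a summit 186 bp upstream of its TSS near the gene Hem. At SerRS it was 48.7 in replicate 1 and 36.7 in replicate 2, at a summit 12 bp upstream shared with CG17260. None of the 15 genes with mitochondrial symbols (-m) was bound, and 2 of the other 17 were. At AsnRS, just outside the threshold with an IDR of 0.011, the signal was 25.8 in replicate 1 and 54.7 in replicate 2.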
